A study of Homo sapiens with 6 samples.

Results

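The transcription factors MYC and MYCN, their shared dimer partner MAX, the MAX-binding repressors MXD1, MXD3, MXD4, MXI1, MNT and MGA, and the MAX-like factor MLX were followed across an RNA sequencing experiment on the long noncoding RNA SNHG17, whose introns carry small nucleolar RNAs. The 10 genes were taken by symbol from the table of raw gene counts, out of 58243 genes in all. Cells labelled Hep3B, a human hepatocellular carcinoma line, had received either a small interfering RNA (siRNA) directed at SNHG17, named si-SNHG17-1, or a control siRNA named si-NC. There were 3 libraries per group of total RNA, and both groups went through a transfection. Neither the time after transfection nor the siRNA dose is given in the sources used here. The comparison asks how the network's transcripts differ between cells with lowered SNHG17 and control cells. No other siRNA against SNHG17 is among the samples. Effects of lowered SNHG17 and of this siRNA on other transcripts therefore cannot be told apart.

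MYC family proteins bind DNA only as heterodimers with MAX, at a short sequence called the E-box, and recruit coactivators to genes of growth, metabolism and ribosome production. MXD proteins, MXI1 and MNT also pair with MAX, bind the same sites and recruit the SIN3 corepressor with its histone deacetylases, while MGA carries MAX into a Polycomb repressor complex. MLX takes the place of MAX for some of these partners and for the glucose-sensing factors MLXIP and MLXIPL. In liver cancer MYC is a well known oncogene.

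The canonical E-box, CACGTG, which reads the same on both strands, was searched in RefSeq promoter windows that run from 250 bases before to 50 bases after a start site (GRCh38.p14). Of the 10 members, 9 had a window, and 3 of these 9 (33.3%) held the motif, as did 8.77% of all 27305 genes with a window. The member without a window was MYC, so its promoter was not searched. The 3 stretches are shown because they carry in the members' own promoters the letters that the network's proteins recognise. Each is given 5′ to 3′ on the gene's strand with the E-box in capitals.
MXD4: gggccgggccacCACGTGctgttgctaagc
MNT: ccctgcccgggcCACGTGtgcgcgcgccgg
MLX: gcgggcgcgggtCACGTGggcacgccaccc
They lie at chr4:2262330-2262359 on the minus strand, chr17:2401236-2401265 on the minus strand and chr17:42567038-42567067 on the plus strand. The first base of the motif is 238, 193 and 50 bases before the start site. A match describes the letters only and is no evidence of binding. None of these 3 genes passed the test of a change described below.

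Total counts were 30207055 to 42271168 per library, so that a floor of 3 counts equals at most 0.0977 CPM, the unit of edgeR in which counts are brought to a common library total, here with its TMM factors. Such floors and the totals speak of counting error only. SNHG17 was at 22.4, 22.8 and 23.9 CPM in si-NC and at 8.03, 8.02 and 8.27 CPM in si-SNHG17-1, which left 35.2% of the control level (log2 fold change −1.51, edgeR adjusted p = 0.00101). Of 11 hepatocyte markers, 9 stayed under 1 CPM in every library, ALB and AFP among them, and TTR and GPC3 were at 0. The summed level of the 11 was 5.20 to 5.63 CPM in si-NC and 5.47 to 6.75 CPM in si-SNHG17-1. These marker levels do not bear out a hepatocyte identity, so the cells are called by their label only. Of 14 markers of other cell types, 5 stayed under 1 CPM in every library, namely PTPRC, CD3E, VWF, EPCAM and COL1A2, the last at 0 throughout. The others included KRT8, KRT18 and VIM, each above 200 CPM, COL1A1 at 80.4 to 116 CPM, CD68 at 32.5 to 59.7 CPM, ACTA2 at 13.2 to 17.8 CPM, PDGFRB at 5.67 to 8.38 CPM and DCN at 3.74 to 9.57 CPM. The 14 summed to 1654 to 2148 CPM in si-NC and to 1714 to 1821 CPM in si-SNHG17-1. COL1A1 was called higher and KRT18 lower in si-SNHG17-1 (log2 fold changes of 0.36 and −0.46, edgeR adjusted p = 0.0485 and 0.0195), and their part in the results below was not tested. With a library left out COL1A1 was called in none of the 6 fits and KRT18 only without si-NC replicate 1. Whether the replicates came from separate cultures is not stated in the labels. The p-values therefore rest on the spread among the 6 libraries alone, and part or all of that spread may be technical. In bulk RNA a lower level in every cell and fewer cells with the transcript cannot be told apart.

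None of the 10 members passed the test of a change between the groups, where 10.5% of the 18679 genes tested did (quasi-likelihood test of edgeR, with p adjusted after Benjamini and Hochberg over all tested genes and called under 0.05). All 10 members were tested. Their log2 fold changes were positive in 5 and negative in 5, with a median of 0.06, against −0.00165 over all tested genes. At an unadjusted p under 0.05 there were 3 members, MAX, MXD1 and MGA, against 26.8% of all tested genes, so that this share is near the background. The groups did not overlap for 3 members, against 33.7% of all tested genes. MAX and MNT were the 2 higher ones (16.4% of all tested genes) and MGA the 1 lower (17.3%). DESeq2 called 1 member, MAX (16.8% of its 16787 genes with an adjusted p were called), and limma-voom called none.

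Si-SNHG17-1 replicate 3 stood apart from the other 2 libraries of its group in 2 members, MYC and MXD1, and the results for both are given with and without it. Among 10657 tested genes with a mean of at least 10 CPM, 20 (0.188%) were at least 4-fold below or above both other libraries of the group in this library, and MYC and MXD1 were among them. The other 5 libraries held 11 to 18 such genes each, none of them a member. This count was set up after the values of MYC and MXD1 were seen. The part of the counting program, of library preparation or of the cells in these single-library values was not tested.

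**Figure D1:**
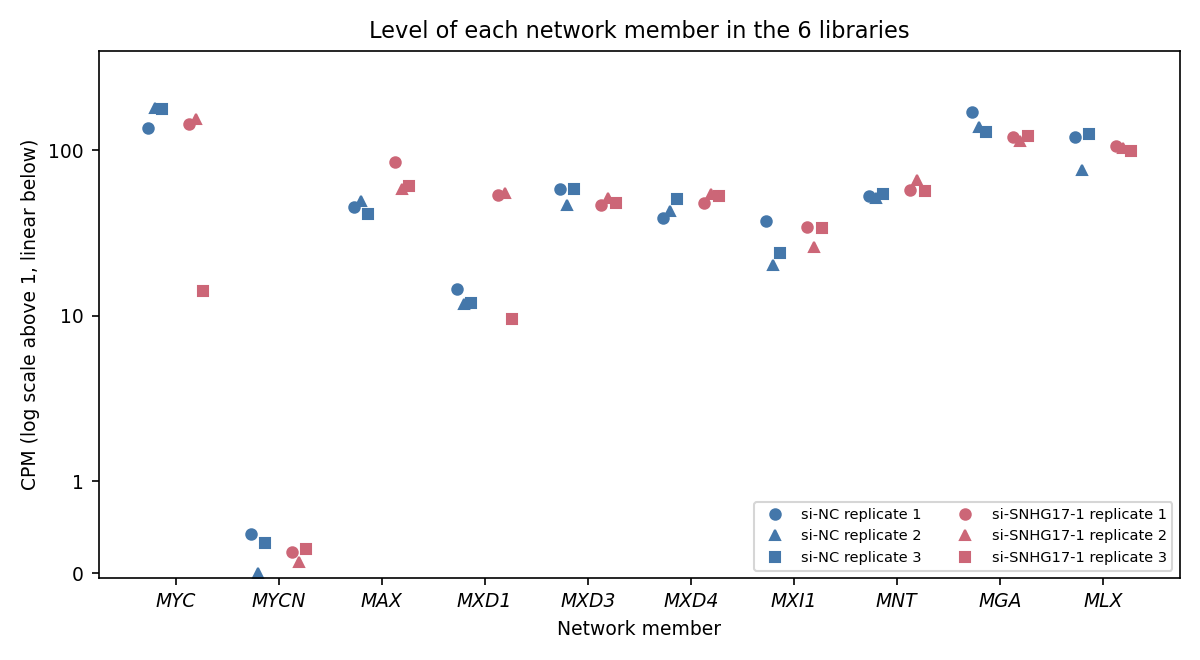
Level of each network member in CPM (vertical axis, logarithmic above 1 and linear below) in the 6 libraries. Points are single libraries, blue for si-NC and red for si-SNHG17-1. MYC and MXD1 in si-SNHG17-1 replicate 3 lie at 14.2 and 9.54 CPM, far below the other 2 libraries of that group, and MAX lies higher in all 3 si-SNHG17-1 libraries.

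Levels were set against each other per length, as CPM per kilobase of merged exons in GENCODE release 29, in si-NC. MYC was highest at 54.8 ± 8.15 (SD, n = 3), followed by MLX at 25.2 ± 6.48. MXD3 at 10.6 ± 1.33, MAX at 10.2 ± 0.913 and MGA at 8.31 ± 1.23 came next, and neighbours among these 3 overlapped in their libraries. MXD4 at 6.25 ± 0.849, MNT at 6.05 ± 0.161 and MXI1 at 5.89 ± 1.94 overlapped likewise. MXD1 followed at 2.00 ± 0.242, and MYCN was last at 0.0964 ± 0.0855. The steps from MYC to MLX, from MLX to MXD3, from MXI1 to MXD1 and from MXD1 to MYCN separated all si-NC libraries. MGA was above MXD4 and MNT in all of them, but MXI1 reached 8.08 in si-NC replicate 1, above MGA in replicates 2 and 3. Merged exons overstate the length of a gene whose cells use a short isoform, so the order is approximate.

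MYC, the activator at the centre of the network, was at 136, 179 and 178 CPM in si-NC and at 144, 155 and 14.2 CPM in si-SNHG17-1. Replicates 1 and 2 of si-SNHG17-1 lay inside the control range, and replicate 3 held 437 counts, 10.5-fold under the mean of the other 2. Over all 6 libraries the log2 fold change was −0.65 ± 0.69 (SE, edgeR adjusted p = 0.613), and the 95% interval of the ratio ran from 0.210 to 1.94. An exact two-sided permutation test over these 6 libraries gave p = 0.3. Without replicate 3 the log2 fold change was −0.12 ± 0.15 (edgeR adjusted p = 0.706), and the interval ran from 0.721 to 1.18. These intervals, here and below, are not adjusted for the number of genes. No exon of another annotated gene overlaps MYC in GENCODE release 29. MYCN, the paralog known from neural tumours, had 16, 0 and 13 counts in si-NC, against 9, 5 and 8 in si-SNHG17-1. At these counts its 95% interval (0.134 to 5.00) covers large changes both ways, and its log2 fold change of −0.29 was not called (edgeR adjusted p = 0.903).

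MAX, the obligate partner, was at 45.5, 49.2 and 41.2 CPM in si-NC and at 84.9, 58.1 and 60.6 CPM in si-SNHG17-1. All 3 si-SNHG17-1 libraries lay above all 3 controls, and replicate 1 was the highest. The mean went from 45.3 ± 4.03 to 67.9 ± 14.8 CPM (SD, n = 3 each), a 1.50-fold ratio with a 95% interval from 1.16 to 1.94. The log2 fold change of 0.58 ± 0.16 (SE) missed the threshold (edgeR adjusted p = 0.0592). It passed with DESeq2 (adjusted p = 0.00959) and with total counts in place of TMM scaling (edgeR adjusted p = 0.0494), where 8.49% and 6.25% of all genes tested were called higher. With a library left out the edgeR adjusted p ranged from 0.0812 to 0.157. An exact two-sided permutation test gave p = 0.1, the smallest that 3 against 3 libraries allow. Groups that do not overlap always reach this value, so it adds nothing to the lack of overlap. MAX (ENSG00000125952.18) lies at chr14:65006174-65102695 of GRCh38 on the minus strand.

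MXD1, the founding MXD repressor, which is known to rise as cells differentiate, was at 14.5, 11.8 and 11.9 CPM in si-NC and at 53.9, 54.9 and 9.54 CPM in si-SNHG17-1. Replicates 1 and 2 were above every control and replicate 3 was below every control. With all 6 libraries the log2 fold change was 1.63 ± 0.56 (SE, edgeR adjusted p = 0.110), with a 95% interval of the ratio from 1.26 to 7.67. An exact two-sided permutation test over these 6 libraries gave p = 0.4. Without si-SNHG17-1 replicate 3 the log2 fold change was 2.11 ± 0.14, a 4.32-fold ratio (interval 3.44 to 5.43). MXD1 was then called (edgeR adjusted p = 0.00385), in a fit that called 2.06% of 19352 genes higher. That fit rests on 2 si-SNHG17-1 libraries and was read after the low value was known. In the other 5 fits with a library left out MXD1 was not called, with adjusted p up to 0.276. MXD1 (ENSG00000059728.10, chr2:69897688-69942945, plus strand) shares 237 exonic bases, 3.73% of its own, with SNRNP27 on the same strand. SNRNP27 was at 36.5, 39.5 and 41.9 CPM in si-NC and at 34.8, 40.9 and 35.8 CPM in si-SNHG17-1, so its level did not follow that of MXD1 across the libraries.

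**Figure D2:**
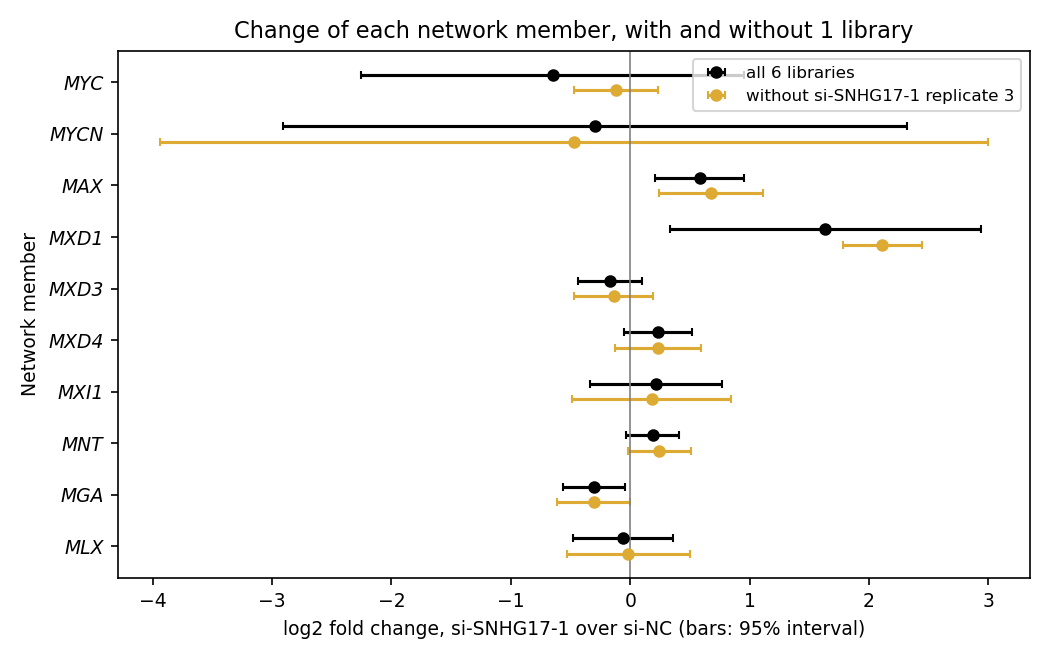
Log2 fold change of si-SNHG17-1 over si-NC for each member (horizontal axis) with its 95% interval, from all 6 libraries (black) and without si-SNHG17-1 replicate 3 (yellow). Leaving out that library moves MYC from −0.65 to −0.12 and MXD1 from 1.63 to 2.11 and narrows both intervals.

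MXD3, MXD4 and MXI1 were not called, and their groups overlapped. MXD3, which is known to be expressed in dividing cells, was at 58.5, 46.8 and 58.8 CPM in si-NC and at 46.7, 51.5 and 47.9 CPM in si-SNHG17-1, with overlap (log2 fold change −0.17, edgeR adjusted p = 0.411). It shares 22.5% of its exonic bases with PRELID1 on the opposite strand and 18.0% with RAB24 on the same strand, so its counts are uncertain. MXD4 was at 38.9, 42.9 and 50.6 CPM in si-NC and at 48.2, 54.5 and 53.1 CPM in si-SNHG17-1, also with overlap (0.23, edgeR adjusted p = 0.268). MXI1, a close relative of MXD1, was at 37.2, 20.2 and 23.9 CPM in si-NC and at 34.6, 25.9 and 34.0 CPM in si-SNHG17-1. Its controls spread more widely than the treated libraries and enclosed them (0.22, edgeR adjusted p = 0.624). Its log2 fold change was 0.51 without si-NC replicate 1, 0.04 without si-NC replicate 2, 0.13 without si-NC replicate 3 and 0.35 without si-SNHG17-1 replicate 2. The 95% intervals of the ratio ran from 0.739 to 1.07 for MXD3, from 0.967 to 1.43 for MXD4 and from 0.793 to 1.70 for MXI1.

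MNT, the repressor that is expressed in most cell types and opposes MYC, was at 52.8, 51.5 and 54.3 CPM in si-NC and at 57.5, 66.5 and 56.5 CPM in si-SNHG17-1. The groups did not overlap, but the log2 fold change was 0.19 ± 0.10 (SE, edgeR adjusted p = 0.263) and the 95% interval of the ratio ran from 0.975 to 1.33. MGA, the member with the most exonic bases, was at 171, 139 and 130 CPM in si-NC and at 120, 115 and 122 CPM in si-SNHG17-1. All 3 si-SNHG17-1 libraries were under all 3 controls, with a log2 fold change of −0.30 ± 0.11 (SE, edgeR adjusted p = 0.126) and an interval from 0.678 to 0.968. Si-NC replicate 1 was the highest, and without it the log2 fold change was −0.18. For MNT and MGA an exact two-sided permutation test gave p = 0.1, as for MAX. Here too the value follows from the lack of overlap and adds nothing to it. MNT shares 12.2% of its exonic bases with AC006435.1 on the opposite strand, a gene at 7.47 to 14.3 CPM.

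MLX, which pairs with MLXIP, MLXIPL and some MXD proteins, was at 121, 75.7 and 126 CPM in si-NC and at 107, 104 and 99.0 CPM in si-SNHG17-1. Si-NC replicate 2 was the lowest of all 6, and the groups overlapped (log2 fold change −0.06 ± 0.18 SE, edgeR adjusted p = 0.875, interval of the ratio from 0.717 to 1.28). It shares 18.1% of its exonic bases with PSMC3IP on the opposite strand, which rose by a log2 fold change of 0.48 (edgeR adjusted p = 0.0136). Whether counting used strand is not given in the sources used here, so reads of such pairs may be mixed in part.

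The make-up of the 8 MAX partners was described by each one's share of their summed level per exon length. MYC made up 51.3%, 62.9% and 60.1% in si-NC, against 51.5%, 52.9% and 10.8% in si-SNHG17-1. In replicates 1 and 2 of si-SNHG17-1 the MYC share was thus inside the control range. MXD1 made up 2.58%, 1.95% and 1.90% in si-NC, against 9.07%, 8.83% and 3.42% in si-SNHG17-1, so that its share was above every control in all 3. In replicate 3 this came with a summed level of 43.9 CPM per kilobase, against 88.5 to 98.6 in the other 5 libraries, since MYC was low there. The 6 repressors together were at 43.0, 35.2 and 39.2 CPM per kilobase in si-NC and at 45.3, 46.1 and 39.1 in si-SNHG17-1, with overlap. MAX amounted to 11.6%, 11.7% and 9.43% of the 8 partners in si-NC and to 20.5%, 13.4% and 31.2% in si-SNHG17-1, the last of these in the library with little MYC. These shares are of transcripts and say nothing of protein.

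**Figure D3:**
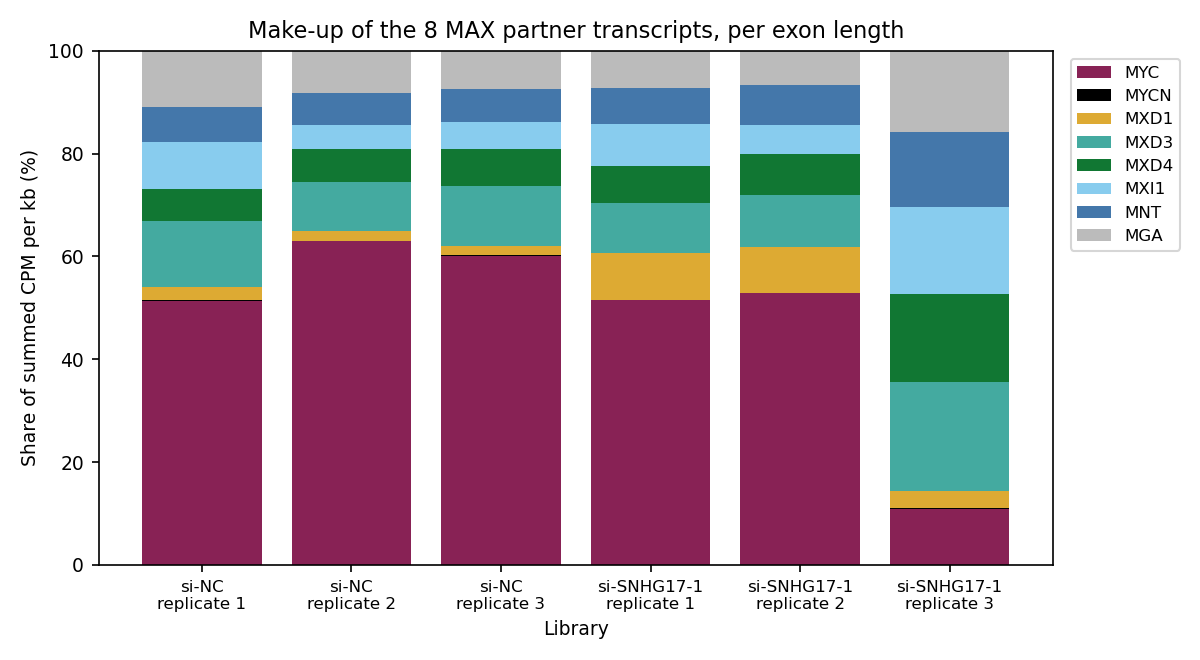
Share of each of the 8 MAX partners in their summed CPM per kilobase of exon (vertical axis, percent) in the 6 libraries. MYC holds 51.3% to 62.9% in 5 libraries and 10.8% in si-SNHG17-1 replicate 3, and MXD1 widens from at most 2.58% in si-NC to 9.07% and 8.83% in si-SNHG17-1 replicates 1 and 2.

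Relatives and partners outside the 10 members held 2 falls among 7 genes and no rise, with a median log2 change of −0.18. Of all tested genes 5.21% fell and 5.25% rose. MLXIPL, the carbohydrate-responsive partner of MLX, was at 8.07, 5.39 and 6.46 CPM in si-NC and at 2.64, 2.44 and 4.10 CPM in si-SNHG17-1 (log2 fold change −1.12 ± 0.26 SE, edgeR adjusted p = 0.0378). BIN1, a MYC-interacting adaptor, fell by 0.41 (edgeR adjusted p = 0.0262). Each kept its call in 1 of the 6 fits with a library left out, MLXIPL only without si-SNHG17-1 replicate 3 and BIN1 only without si-NC replicate 2. MYCL, the remaining MYC paralog, had a log2 fold change of −0.09 and MLXIP, the other large partner of MLX, of −0.18, and neither was called (edgeR adjusted p = 0.908 and 0.173).

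Corepressor and coactivator genes were mostly uncalled. Of 17 genes of the SIN3 complex, which MXD and MNT proteins recruit, 2 rose and none fell, against 5.25% and 5.21% of all tested genes. HDAC1, a histone deacetylase of that complex, was at 89.8, 82.2 and 82.2 CPM in si-NC and at 144, 151 and 143 CPM in si-SNHG17-1 (log2 fold change 0.79 ± 0.08 SE, edgeR adjusted p = 0.00206). It was called in each of the 6 leave-one-out fits. HDAC2, the other deacetylase of the list, had a log2 fold change of −0.20 and was not called (edgeR adjusted p = 0.286). SIN3B, a scaffold of the complex, rose by 0.41 (edgeR adjusted p = 0.0425) and was called in none of those fits. The other scaffold, SIN3A, lay lower in all 3 si-SNHG17-1 libraries, with a log2 fold change of −0.40 that missed the threshold (edgeR adjusted p = 0.0684). It was called lower by DESeq2 and by edgeR without si-NC replicate 3. Of 19 coactivators recruited by MYC, none rose and 1 (5.26%) fell, against 5.25% and 5.21% of all tested genes, so that the count is near the background. It was RUVBL1, a helicase of chromatin remodelling complexes, which fell by 0.36 (edgeR adjusted p = 0.0213, and called only without si-NC replicate 1 among those fits). In the Polycomb complex that holds MGA and MAX, 1 of 11 genes rose and 1 fell (9.09% each, against 5.25% and 5.21%). Single genes of so short a list are near the background. They were YAF2, by 0.52, and CBX3, by 0.33 (edgeR adjusted p = 0.0406 and 0.0485), and both lost the call whichever library was left out. The median log2 change was −0.06 for the SIN3 list, 0.01 for the coactivators and −0.01 for the Polycomb complex.

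Genes that set the stability of MYC protein held 4 rises and 2 falls among 22 tested (18.2% and 9.09%, against 5.25% and 5.21% of all tested genes) and a median log2 change of −0.12. A count of 2 falls in 22 genes is near the background. SKP2, a ubiquitin ligase subunit that acts on MYC and on cell cycle inhibitors, was at 91.7, 83.8 and 84.0 CPM in si-NC and at 48.4, 49.4 and 50.4 CPM in si-SNHG17-1 (log2 fold change −0.81 ± 0.08 SE, edgeR adjusted p = 0.00237). The groups were far apart, and SKP2 was called in each of the 6 leave-one-out fits. The deubiquitinases USP36, USP22 and USP37 rose by 0.47, 0.41 and 0.80 (edgeR adjusted p = 0.00963, 0.0171 and 0.0235), and PLK1, a mitotic kinase, fell by 0.30 (edgeR adjusted p = 0.0483). With a library left out the list held 0 to 3 rises and 1 or 2 falls, counted anew in each fit and so including a gene not called in the main test. USP36 lost its call only without si-SNHG17-1 replicate 1, while USP22 and USP37 kept it in 3 and 1 of the 6 and PLK1 in none.

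Of 47 tested genes known to be activated by MYC, 17 (36.2%) fell and 2 (4.26%) rose, against 5.21% and 5.25% of all tested genes, so that the rises are near the background. The median of their log2 fold changes was −0.24. RUVBL1, the coactivator gene that fell, is also on this list and among the 17. This list overlaps growth and biosynthesis genes already known to be lower in these libraries, so its direction is not independent evidence. SLC7A5, an amino acid transporter, was at 2800, 2595 and 2853 CPM in si-NC and at 1806, 1885 and 1707 CPM in si-SNHG17-1 (−0.61 ± 0.06 SE, edgeR adjusted p = 0.00206). GART, an enzyme of purine synthesis, was at 200, 196 and 200 CPM in si-NC and at 129, 139 and 129 CPM in si-SNHG17-1 (−0.59 ± 0.07 SE, edgeR adjusted p = 0.00377). NME1, a nucleoside diphosphate kinase, fell by 0.53 (edgeR adjusted p = 0.00829). The 2 that rose were the S-phase regulators E2F1 and E2F2 (log2 fold changes of 0.70 and 0.56, edgeR adjusted p = 0.00353 and 0.0108). SLC7A5, GART, E2F1 and E2F2 were called in each of the 6 leave-one-out fits, and NME1 in all but the fit without si-SNHG17-1 replicate 1. The list held 2, 5 and 4 falls without si-SNHG17-1 replicates 1, 2 and 3, and 11, 9 and 9 without si-NC replicates 1, 2 and 3. These falls were counted anew in each fit and include a gene outside the 17. With total counts in place of TMM scaling 12 fell and 3 rose.

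In the library where MYC was low, the list lay close to the other si-SNHG17-1 libraries. As the median over the 47 genes of log2(CPM + 1) less the control mean, si-SNHG17-1 replicates 1, 2 and 3 were at −0.254, −0.254 and −0.283, and the si-NC libraries were at 0.0147, −0.0360 and 0.0146. The level of MYC in replicate 3 was 9.49% of the mean of replicates 1 and 2. Whether the list follows MYC was not tested. The low value rests on that library alone and is of transcripts, and a list median does not show single genes.

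Of 14 tested genes known to be repressed by MYC, 3 rose and none fell, against 5.25% and 5.21% of all tested genes, and the median was −0.02. KLF6, a zinc finger transcription factor, was at 45.5, 30.4 and 39.2 CPM in si-NC and at 81.4, 86.2 and 97.2 CPM in si-SNHG17-1 (log2 fold change 1.20 ± 0.16 SE, edgeR adjusted p = 0.00516). The antiproliferative genes BTG2 and BTG1 rose by 0.90 and 0.61 (edgeR adjusted p = 0.0123 and 0.0131). KLF6 and BTG2 were called in each of the 6 leave-one-out fits, and BTG1 in the 3 without a si-NC library only. The cell cycle inhibitors CDKN1A and CDKN2B had log2 fold changes of −0.27 and 0.23 and were not called (edgeR adjusted p = 0.128 and 0.140). Without si-NC replicate 3 CDKN1A was called lower.

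Of 9 tested genes known to be activated by MLX with its large partners, 2 rose and 1 fell, against 5.25% and 5.21% of all tested genes, with a median of −0.21. TXNIP, the thioredoxin-binding protein that limits glucose uptake, was at 153, 181 and 137 CPM in si-NC and at 347, 372 and 346 CPM in si-SNHG17-1 (log2 fold change 1.17 ± 0.11 SE, edgeR adjusted p = 0.00185). All 3 si-SNHG17-1 libraries were well above the controls, and the call held in each of the 6 leave-one-out fits. ARRDC4, its arrestin-domain relative and another target of MLX with MLXIP, was not called, with a log2 fold change of −0.31 (edgeR adjusted p = 0.340). KLF10 rose by 0.58 (edgeR adjusted p = 0.0171, called in 2 of those fits, without si-NC replicates 1 or 2), and FASN, the fatty acid synthase gene, fell by 0.52 (edgeR adjusted p = 0.00696, called in all 6).

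**Figure D4:**
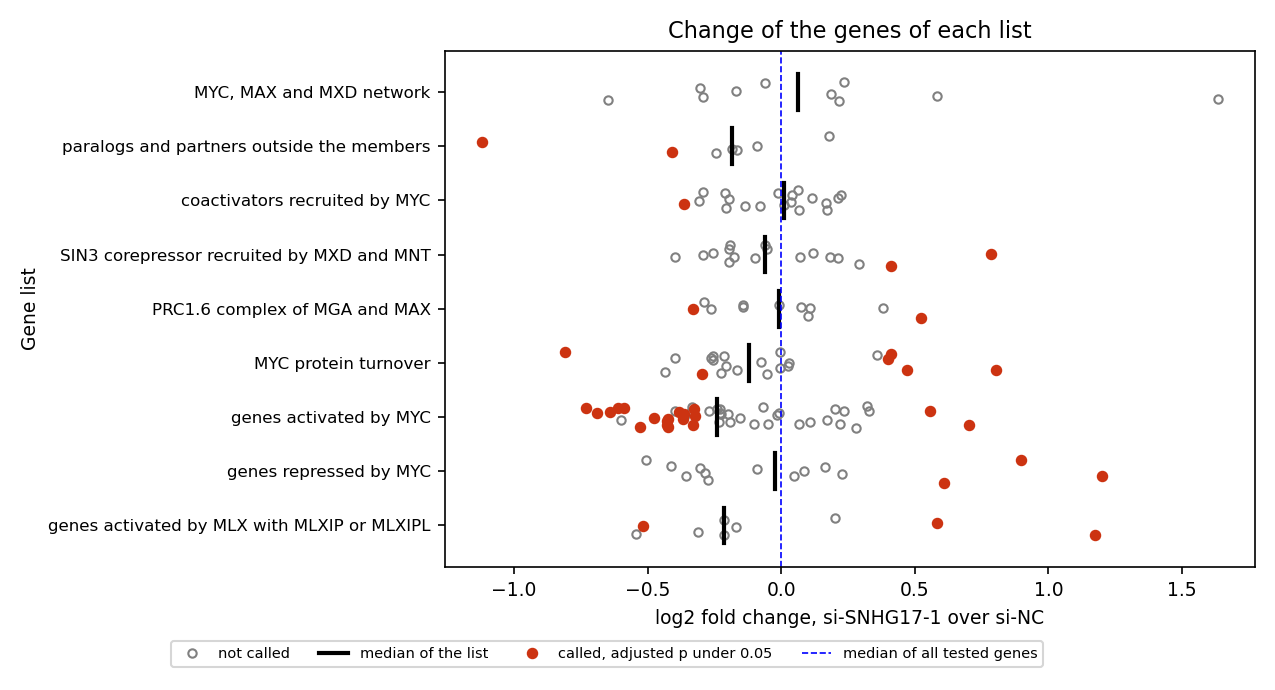
Log2 fold change of si-SNHG17-1 over si-NC (horizontal axis) for the tested genes of the network and of 8 lists of partners and targets. Points are genes, filled where called, black bars are list medians and the dashed line is the median of all tested genes. No network member is called, and 17 of the 47 genes activated by MYC are called lower.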

How the data were processed

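The authors deposited 1 table of raw counts per gene for the 6 libraries, whole numbers that were not normalised. Alignment used HISAT2 and GRCh38, per the submitters' processing notes. For the counting program, annotation release and strand setting, nothing is given in the sources used here. A deposited length column is the span of the whole gene and was not used for scaling. All 10 members matched GENCODE release 29 with the same identifier version, and exon lengths and overlaps come from it.

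Genes were kept with filterByExpr (minimum count 10, minimum total 15), libraries were scaled with TMM, and groups were compared with the quasi-likelihood test of edgeR 4.0.16 in R 4.3.3, without a replicate block. The standard error of a log2 fold change was taken from its size and the F statistic. The 95% intervals use the t distribution with the fit's degrees of freedom. The permutation test used log2(CPM + 1). The fit was tested on simulated counts, drawn with the spread fitted to each gene. No single library was set apart in them. Values such as those of MYC and MXD1 in si-SNHG17-1 replicate 3 were therefore not covered. The members and gene lists were chosen with earlier results of these data known. Genes named are the 10 members, SNHG17, markers, and from each list up to 3 called genes per direction with the smallest adjusted p. HDAC2, SIN3A, MYCL, MLXIP, CDKN1A, CDKN2B, ARRDC4 and the genes that overlap a member were added after their values were seen. A rule to name genes most like a called member named none, since no member was called.

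Alternatives were median-of-ratios factors, total counts, other filters, DESeq2 1.42.0, limma-voom (limma 3.58.1), a replicate block and each library left out.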

Additional observations from a re-analysis of the deposited data

How the results depend on the processing

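The number of called members was 0 in the main edgeR test, where 3 had an unadjusted p under 0.05, and 1 with DESeq2 and with total counts (MAX both times). With a library left out it was 0 to 1 (MXD1 without si-SNHG17-1 replicate 3). Called genes over the whole table numbered 1954, and 1297 without a filter on low counts, where 627 were lower against 974 in the main test. With a library left out they ranged from 577 to 1399 in all, from 313 to 694 for higher and from 264 to 705 for lower genes, in fits with fewer libraries. Called genes of the 8 partner and target lists numbered 37, and 10 to 24 with a library left out, and 10 of the 37 kept the call in all 6 of these fits.

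The replicate numbers are shared between the groups, but same-numbered libraries did not deviate together over all tested genes (correlations of −0.0172, −0.0367 and −0.0153). The labels do not say whether they were handled together. These correlations cannot decide it, because they pool all tested genes and could miss a shared deviation of some. With a replicate block no member was called, all called genes numbered 532 (273 higher and 259 lower), and 11 genes of the lists were called.

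MYCN changed sign to 0.80 with limma-voom, to 0.24 with the replicate block, to 0.31 without si-NC replicate 1 and to 0.0039 without si-SNHG17-1 replicate 2, within a leave-one-out range from −0.88 to 0.31. MLX changed sign to 0.034 and 0.066 without si-NC replicates 1 and 3, within a leave-one-out range from −0.26 to 0.066. The cause was not tested. The other 8 members kept their direction in every fit run. MYCN had no value when 3 libraries had to reach 1 CPM. Its counts were at most 16 per library, with 0 in si-NC replicate 2, the library with the highest total.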
